A study of Mus musculus with 35 samples.

Results

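The genes of colony-stimulating factor signalling were followed by symbol in the per-sample counts: the ligand gene *Csf1*, the receptor genes *Csf1r*, *Csf2ra*, *Csf2rb*, *Csf2rb2* and *Csf3r*, and *Flt3*. They are 7 of the 54735 genes counted, and all 7 were among the 13421 genes over 1 count in 1e+06 (CPM) in at least 5 samples. The study sorted liver macs from male C57Bl/6J mice put on their diets at 5 weeks of age, to ask how resident Kupffer cells (ResKCs, CLEC4F+TIM4+) and macs recruited in metabolic fatty liver disease differ. The mice ate either a standard diet (SD) or a western diet (WD), which is rich in fat, sugar and cholesterol. ResKCs from SD-fed mice gave 7 samples at 12 weeks and 6 samples at 24 weeks of diet, and ResKCs from WD-fed mice gave 5 and 6. The recruited cells all came from WD-fed mice at 24 weeks, as 5 samples of monocyte-derived Kupffer cells (moKCs, CLEC4F+TIM4-) and 6 of CLEC4F- macs, so no SD-fed counterpart of either was measured. The 5 WD samples of 12 weeks are named as western diet in title and description but as standard diet in the diet field, and they were treated as WD.

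Colony-stimulating factors are secreted proteins that drive the survival, growth and maturation of myeloid cells. CSF1 and IL-34 both bind CSF1R, the receptor tyrosine kinase on which tissue macrophages, Kupffer cells among them, depend for their upkeep. The receptor for GM-CSF (CSF2) pairs a specific alpha chain, encoded by *Csf2ra*, with the common beta chain, encoded by *Csf2rb*, which also serves the IL-3 and IL-5 receptors. Mice carry an additional beta chain gene, *Csf2rb2*, whose product works with the IL-3 receptor only. *Csf3r* encodes the receptor for G-CSF (CSF3) and is best known from neutrophils, and FLT3, a kinase related to CSF1R, is found on early progenitors and dendritic cells.

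The libraries held between 11568590 and 15163845 counts, at which 3 counts, taken here as the floor, are 0.198 to 0.259 CPM. These floors, like the intervals below, cover counting error or the spread between samples only. The study counts its samples as mice, but no label ties each sample to a mouse of its own, so the p-values measure the spread between these samples. The sorted populations matched their gates in part. *Timd4*, the gene of TIM4, was at 547 to 1358 CPM in the ResKC samples and at 2.85 to 30.3 CPM in the moKCs and CLEC4F- macs. *Clec4f* mRNA was at 294 to 5488 CPM in the CLEC4F- macs against 7326 to 17495 CPM in all other samples, so it was lower but present in every CLEC4F- sample. The highest of these, CLEC4F- replicate 4, stood apart from the other CLEC4F- samples, which lay at or below 1539 CPM. In bulk samples fewer cells of a type and less RNA per cell cannot be told apart.

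The levels spanned several orders of magnitude. Per kilobase of exon, *Csf1r* had a mean of 1299.6 CPM over the 35 samples and ranked between 31 and 37 of 13387 genes in every group. *Csf2ra* followed at 99.1 CPM per kilobase, then *Csf2rb* at 38.0, *Csf3r* at 24.3 and *Csf2rb2* at 15.5. The ligand *Csf1* was far lower, at 2.02 CPM per kilobase, and *Flt3* was lowest, at 0.192. Between groups, the highest mean was 2.17 times the lowest for *Csf1r* and 2.41 times for *Csf1*, but 1.17 times for *Csf2ra*, 1.25 times for *Csf2rb2*, 1.36 times for *Csf2rb* and 1.39 times for *Csf3r*.

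**Figure D1:**
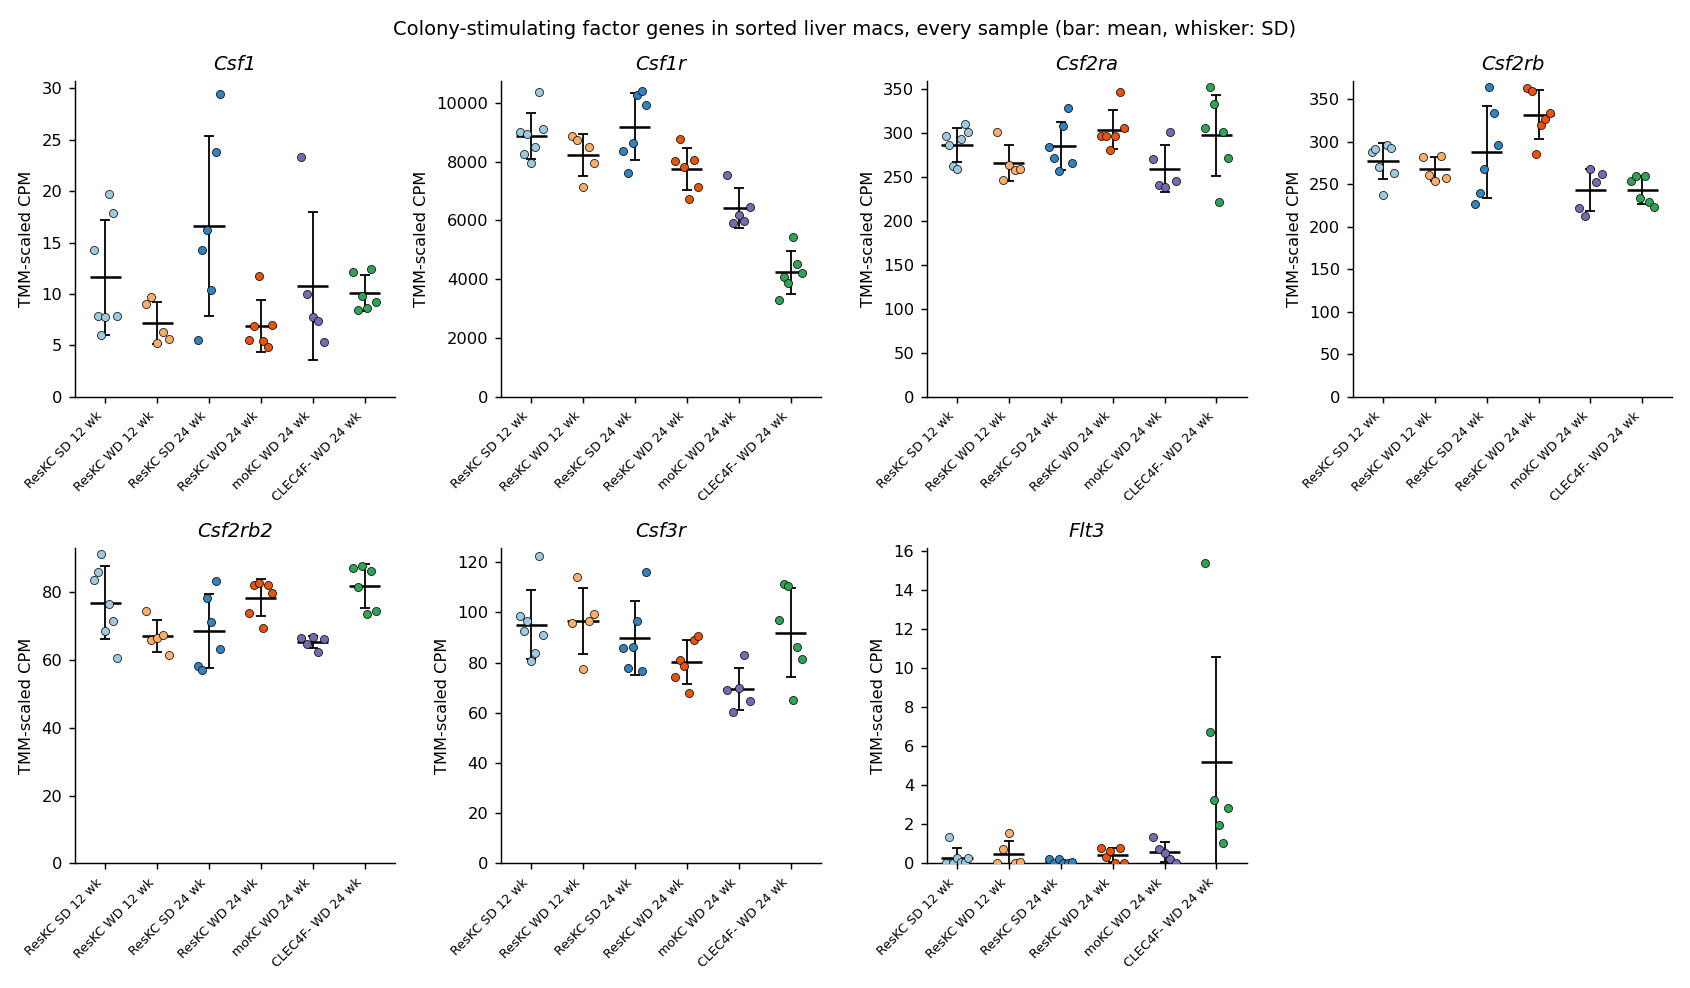
TMM-scaled CPM (vertical axes, each from 0) of the 7 genes in all 35 samples, grouped by population, diet and weeks of diet (horizontal axes); points are samples, bars are means and whiskers are SDs. *Csf1r* steps down from the ResKCs to the moKCs and the CLEC4F- macs. *Flt3* rises above 1 CPM in all 6 CLEC4F- samples and in single samples of the SD and WD ResKCs at 12 weeks and the moKCs.

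All adjusted p below came from the quasi-likelihood test of edgeR with Benjamini-Hochberg adjustment over all 13421 genes, unless a permutation test is named. Between WD and SD ResKCs at 12 weeks 0 of 7 passed an edgeR adjusted p under 0.05, beside 0.0373% of all genes tested, and 1 of 7 was under 0.05 without adjustment, beside 8.73% of all genes. At 24 weeks 0 of 7 were higher on the WD, beside 4.84% of all genes, and 1 was lower, beside 3.87% (8.71% in both directions). Between CLEC4F- macs and ResKCs on the WD 3 of 7 passed, beside 33.0% of all genes, 1 higher (16.1% of all genes) and 2 lower (17.0%). In 3 of 7 the samples of these groups did not overlap, beside 16.0% of all genes. Between moKCs and ResKCs 1 of 7 passed, beside 2.99%, with 0 higher (0.991% of all genes) and 1 lower (2.0%), and 2 of 7 did not overlap, beside 3.21%. Between CLEC4F- macs and moKCs 4 of 7 passed, beside 16.4%, 3 higher (7.09%) and 1 lower (9.34%), and 2 of 7 did not overlap, beside 8.16%. The median log2 fold changes of the 7 genes in these comparisons on the WD were 0.06, -0.23 and 0.20, against 0.02, 0.02 and -0.01 over all genes. Among SD ResKCs at 24 against 12 weeks 0 of 7 passed, beside 0.0% of all genes, with 0 of 7 under 0.05 without adjustment beside 9.0% of all genes. In the test of whether the diet effect differed between the times 0 of 7 passed, beside 0.283%, and 1 of 7 was under 0.05 without adjustment beside 14.1%. DESeq2 and limma-voom also called 0 of 7 in these 3 comparisons with no call. The comparisons on the WD at 24 weeks share samples with one another, and both diet comparisons share theirs with the comparison over time, so they are not independent. *Flt3*, counted as higher in both comparisons of CLEC4F- macs, passed the filter on low counts only through the CLEC4F- samples.

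**Figure D2:**
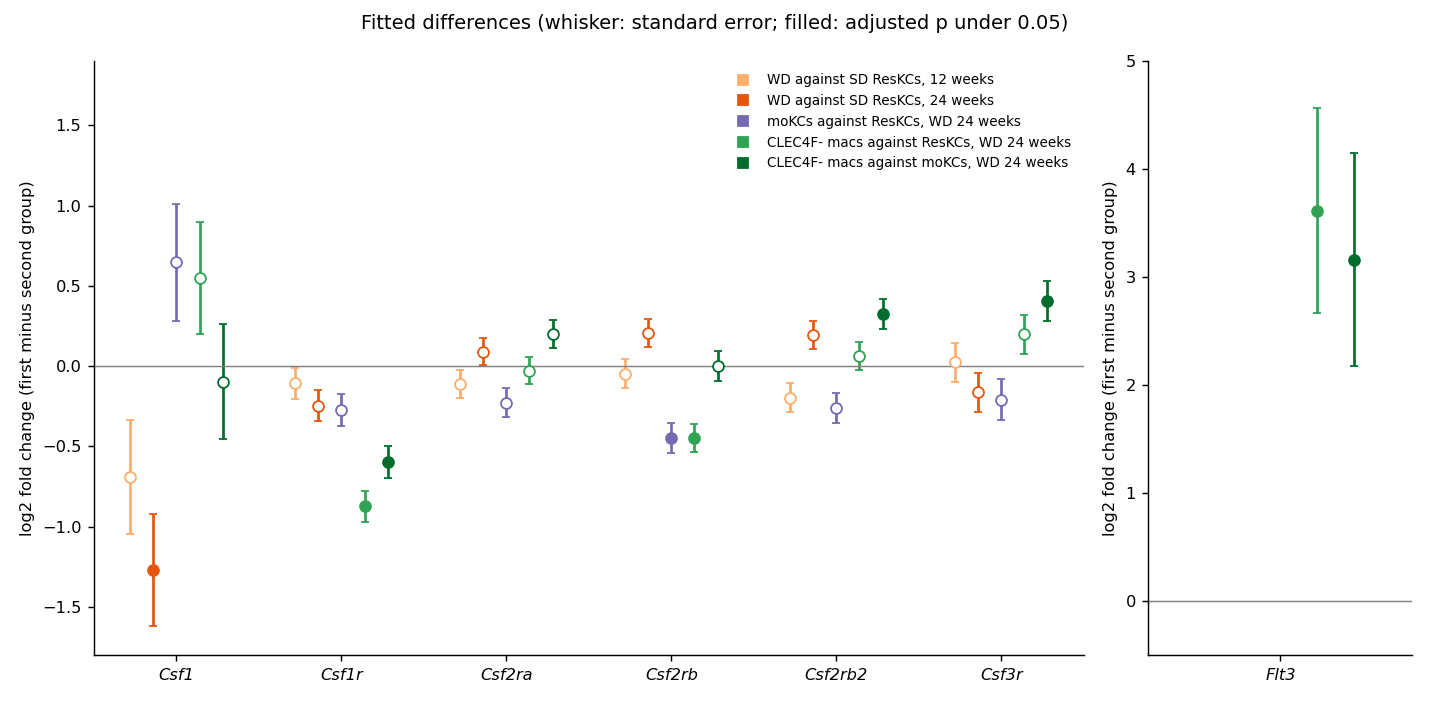
Fitted log2 fold changes (vertical axes, first minus second group) of *Csf1*, *Csf1r*, *Csf2ra*, *Csf2rb*, *Csf2rb2* and *Csf3r* in 5 comparisons (left) and of *Flt3* in the comparisons with CLEC4F- macs (right, on its own scale); whiskers are standard errors and filled points have an adjusted p under 0.05. *Csf1* has the lowest value of the left panel, in the diet comparison at 24 weeks, and *Csf1r* and *Csf2rb* lie below 0 in the CLEC4F- macs against ResKCs.

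*Csf1* encodes the ligand of CSF1R and lies on chromosome 3 of mm10 (107741048 to 107760469, minus strand). It fell with the WD at 24 weeks and passed the test in no other comparison. In SD ResKCs at 24 weeks it ran from 5.55 CPM over a median of 15.3 CPM to 29.4 CPM, and in WD ResKCs from 4.82 over 6.21 to 11.7 CPM. The groups overlapped, because SD replicate 1, at 5.55 CPM, lay among the WD samples, and 3 of the 6 WD samples lay below all SD samples. The log2 fold change of WD against SD was -1.27 (standard error, SE, 0.35; edgeR adjusted p = 0.0203), and without SD replicate 6, the highest sample, it was -1.03 with an adjusted p of 0.063. The call was also lost in limma-voom (-1.12, adjusted p = 0.062) and with the naming scheme of the alignments in the file headers as a covariate (-1.16, edgeR adjusted p = 0.0512), a scheme of unstated meaning that was 1 of 2 kinds in all SD samples at 24 weeks and mixed in the WD samples. Over 14 alternative fits it held in 9 and was lost in 5, and it held in 11 of 12 fits without 1 sample. It held in DESeq2 (-1.27, adjusted p = 0.00526) and with 7 hepatocyte genes as a covariate (-1.45, edgeR adjusted p = 0.00684). At 12 weeks the SD samples ran from 5.97 over 7.87 to 19.7 CPM, and the WD samples stood at 9.005, 9.73, 5.26, 6.25 and 5.63 CPM. There the log2 fold change was -0.69 (SE 0.36, edgeR adjusted p = 0.606), and the effect of diet changed between the times by -0.58 (SE 0.49, adjusted p = 0.653).

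Among the recruited populations *Csf1* had 23.3, 9.97, 7.79, 7.40 and 5.34 CPM in the 5 moKC samples. The CLEC4F- macs ran from 8.41 over 9.49 to 12.4 CPM. Only moKC replicate 1 lay above all WD ResKC samples, whereas 2 of the 6 CLEC4F- samples did. The log2 fold changes against WD ResKCs were 0.65 for moKCs (SE 0.36, edgeR adjusted p = 0.398) and 0.55 for CLEC4F- macs (SE 0.35, adjusted p = 0.244), neither past the threshold. Without moKC replicate 1 the former was 0.15. With the endothelial genes described next as a covariate, the latter was 0.78 with an edgeR adjusted p of 0.0143.

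Summed levels of genes of other liver cells and of immediate-early and heat-shock genes differed beside *Csf1*. At 24 weeks the summed level of 6 genes of liver sinusoidal endothelial cells was 702 to 1575 CPM in SD ResKCs and 476 to 897 CPM in WD ResKCs, with 0 of 6 higher and 1 of 6 lower on the WD. The 7 genes of stellate cells summed to 65.0 to 184 CPM on the SD and 38.4 to 104 CPM on the WD, with 0 of 7 higher and 1 of 7 lower. The 10 immediate-early and heat-shock genes summed to 2587 to 13824 CPM on the SD and 1050.4 to 4945 CPM on the WD, and 7 of 10 were lower on the WD. The 7 hepatocyte genes summed to 442 to 1240 CPM on the SD and 851 to 2358 CPM on the WD, with 0 of 7 higher and 0 lower. Of all genes 4.84% were higher and 3.87% lower in this comparison. None of the genes of these lists was at 0 throughout a group. With the endothelial list as a covariate the log2 fold change of *Csf1* was -0.69 (edgeR adjusted p = 0.0847), with the stellate list -1.11 (adjusted p = 0.0507) and with the immediate-early and heat-shock list -0.80 (adjusted p = 0.304). The 3 genes whose log2 CPM most resembled that of *Csf1* over the 35 samples were *Adamts1* (Pearson's r = 0.82), *Bmp2* (0.80) and *Gja1* (0.77), a description over samples that share populations and diets. Beyond these covariates, the part of these genes in the fall of *Csf1* was not tested. In moKC replicate 1, the moKC sample highest in *Csf1*, the endothelial genes summed to 1326 CPM, against 487 to 1065 CPM in the other moKC samples.

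**Figure D3:**
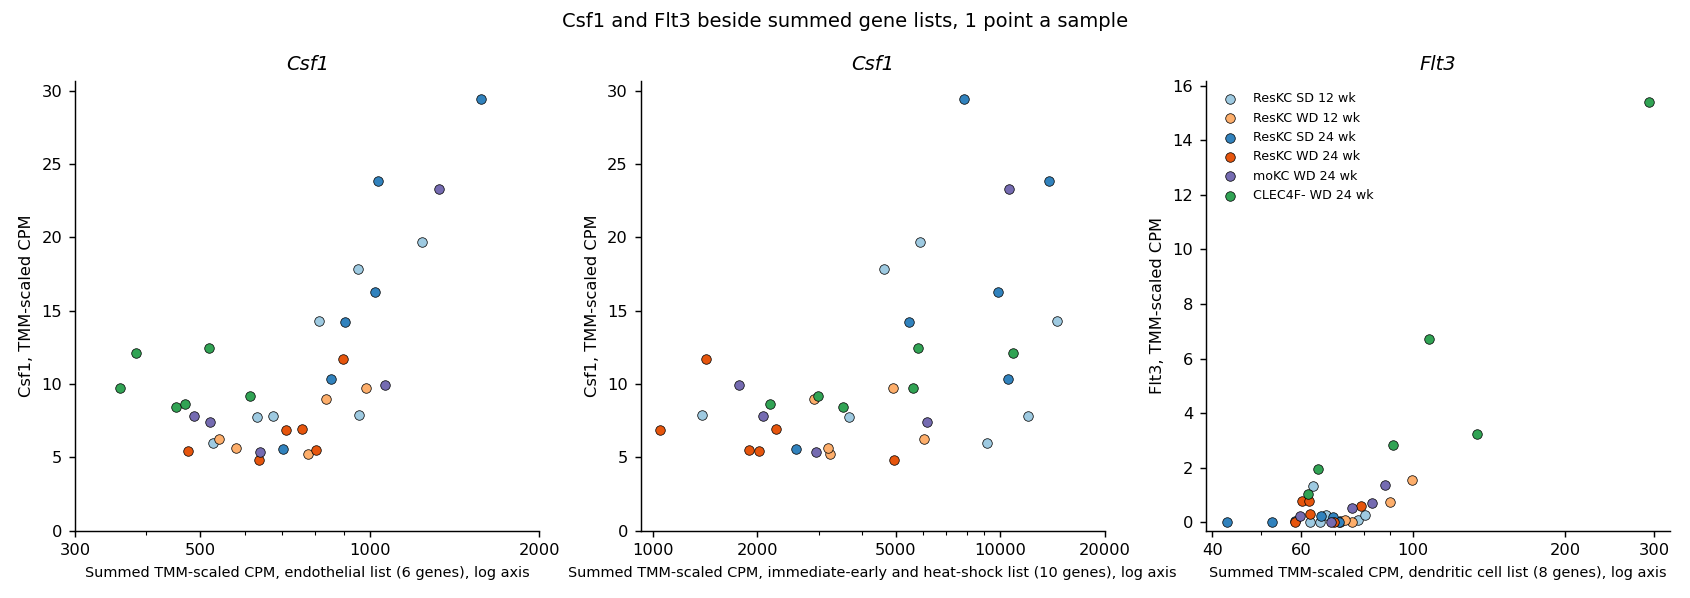
*Csf1* (vertical axes, TMM-scaled CPM) against the summed CPM of 6 endothelial genes (left) and of 10 immediate-early and heat-shock genes (middle), and *Flt3* against the summed CPM of 8 dendritic cell genes (right), with log horizontal axes and 1 point per sample coloured by group. The samples with *Csf1* above 15 CPM all lie above 900 CPM of endothelial genes, and CLEC4F- replicate 1 is the highest in both *Flt3* and the dendritic cell genes.

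The other ligands of this receptor family were read beside *Csf1*, and several were at or near 0. *Il34*, the second ligand of CSF1R, had group means of 0.257 to 1.19 CPM. *Csf2* reached at most 2 counts in any sample and *Csf3* at most 10 counts, and *Il3* and *Il5* had 0 counts in all 35 samples, which allows at most the floor given above in each. *Flt3l*, the ligand gene of FLT3, stood at group means of 1.59 to 2.43 CPM. *Kitl*, the ligand gene of the related receptor KIT, stood at 23.5 ± 2.44 CPM in WD ResKCs at 24 weeks (SD, n = 6), against 11.2 ± 2.01 CPM in moKCs (SD, n = 5) and 7.27 ± 3.70 CPM in CLEC4F- macs (SD, n = 6). Of the 7 genes in this list 3 passed the filter, and *Kitl* was the only one that changed. It was lower by a log2 fold change of -1.69 in CLEC4F- macs (SE 0.24, edgeR adjusted p = 8.51e-07) and of -1.06 in moKCs (SE 0.25, adjusted p = 0.0112), and neither population overlapped the ResKCs.

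*Csf1r*, the receptor gene on chromosome 18 (61100598 to 61132149, plus strand), was the most abundant of the 7 genes and was lower in the CLEC4F- macs than in either Kupffer cell population. The CLEC4F- samples stood at 3289, 4079.5, 3866, 5439, 4519.8 and 4199 CPM. The moKC samples stood at 7565, 5907, 6170.1, 5982 and 6448 CPM, and the WD ResKC samples at 24 weeks ran from 6718 over 7925 to 8773 CPM. All 6 CLEC4F- samples lay below all moKC and all ResKC samples. The log2 fold change against ResKCs was -0.87 (SE 0.10, edgeR adjusted p = 1.23e-08) and that against moKCs was -0.60 (SE 0.10, adjusted p = 4.83e-05). These are 0.546 and 0.66 of the ResKC and moKC levels, and the transcript still ranked 37 of 13387 genes per kilobase in the CLEC4F- macs. With a block for the replicate number the call against moKCs was lost (-0.60, edgeR adjusted p = 0.0667).

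The moKCs lay between the other populations. In 4 of the 5 moKC samples *Csf1r* was below all WD ResKC samples, moKC replicate 1 was not, and the log2 fold change of -0.27 missed the threshold (SE 0.10, edgeR adjusted p = 0.142). Between WD and SD ResKCs at 24 weeks the log2 fold change was -0.25 (95% interval -0.44 to -0.06, edgeR adjusted p = 0.103), with SD samples from 7622 over 9281 to 10394 CPM. At 12 weeks it was -0.11 (95% interval -0.30 to 0.08, edgeR adjusted p = 0.79). Ordered by their means, SD ResKCs at 24 weeks stood at 9200.2 ± 1153 CPM (SD, n = 6), SD ResKCs at 12 weeks at 8886 ± 789.9 CPM (SD, n = 7), WD ResKCs at 12 weeks at 8246 ± 716 CPM (SD, n = 5), WD ResKCs at 24 weeks at 7755 ± 728 CPM (SD, n = 6), moKCs at 6414 ± 676 CPM (SD, n = 5) and CLEC4F- macs at 4232 ± 719 CPM (SD, n = 6). The moKCs and CLEC4F- macs were the only neighbours in this order whose samples did not overlap, and for none of the other 6 genes did any neighbours in the order of means stand apart.

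CLEC4F- replicate 4, the highest of its group in *Csf1r*, was also the highest in *Clec4f*, at 5488 CPM. Without it the log2 fold change of *Csf1r* was -0.96 against ResKCs and -0.68 against moKCs. CLEC4F- replicates 1 to 3 shared 1 naming scheme of the alignments and all lay below replicates 4 to 6, of the other, in *Csf1r*. They lay above them in *Csf2ra*, *Csf3r* and *Flt3*, and these sets overlapped in *Csf1*, *Csf2rb* and *Csf2rb2*. With the scheme as a covariate the log2 fold change of *Csf1r* against ResKCs was -0.88 (edgeR adjusted p = 1.64e-08). The 8 Kupffer cell genes summed to 2522 to 15156 CPM in the CLEC4F- macs and to 28974 to 36439 CPM in the WD ResKCs, and 8 of 8 were lower. The 7 monocyte genes summed to 551 to 1621 CPM against 319 to 918 CPM, and 3 of 7 were higher. Of all genes 16.1% were higher and 17.0% lower in this comparison. The part of these genes in the difference of *Csf1r* was not tested. Over the 35 samples the genes most like *Csf1r* were *Smagp*, *St3gal5* and *Adgre1*, each with Pearson's r = 0.96, where *Adgre1* encodes the macrophage antigen F4/80 and is itself on the Kupffer cell list. A gene on the opposite strand, *Hmgxb3*, overlaps *Csf1r* and had at most 451 counts in a sample, against 47432 or more for *Csf1r*.

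Genes acting downstream of CSF1R and at its shedding from the surface were read from lists. Of 20 signalling genes, all of which passed the filter, 2 were higher and 10 lower in CLEC4F- macs than in WD ResKCs, beside 16.1% and 17.0% of all genes, with a median log2 fold change of -0.22 against 0.02 over all genes tested. Among these *Src* (-1.15, edgeR adjusted p = 0.00256) and *Fyn* (-0.54, adjusted p = 0.0026) encode kinases of the SRC family. Against moKCs 1 was higher and 5 lower, with *Fyn* at -0.62, *Pik3r1*, a regulatory subunit of PI3 kinase, at -0.38 and the kinase gene *Mapk3* (ERK1) higher by 0.35. Between moKCs and ResKCs 0 of 20 passed. With the WD at 24 weeks *Tyrobp*, the adaptor DAP12, fell by 0.31 on the log2 scale. Of 4 genes of receptor shedding 0 were higher and 2 lower in CLEC4F- macs than in ResKCs, namely *Adam17*, the protease that releases CSF1R from the membrane (-0.29, edgeR adjusted p = 0.00113), and *Rhbdf2*, which guides that protease to the surface (-0.78, adjusted p = 1.99e-08). *Rhbdf2* was also lower than in moKCs, by -0.49 (edgeR adjusted p = 0.000189).

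*Csf2ra*, which encodes the GM-CSF receptor alpha chain (chromosome 19, 61223957 to 61228429, minus strand), passed the test in none of the comparisons. Its samples lay between 222 and 353 CPM, and the group means between 259.6 and 304 CPM. It was lowest in the moKCs, at 270.3, 242, 239, 301 and 246 CPM, with 4 of 5 samples below all WD ResKC samples, which ran from 281 over 297 to 346 CPM. The log2 fold change of moKCs against ResKCs was -0.23 (95% interval -0.40 to -0.05, edgeR adjusted p = 0.168). SD ResKCs lay between 259 and 310.1 CPM at 12 weeks and between 257 and 328 CPM at 24 weeks, and WD ResKCs at 12 weeks stood at 301, 247, 264, 258 and 259 CPM, so these groups overlapped throughout. CLEC4F- macs ran from 222 over 303 to 353 CPM and differed from ResKCs by -0.03 (95% interval -0.19 to 0.14, edgeR adjusted p = 0.834). CLEC4F- macs differed from moKCs by 0.20 (edgeR adjusted p = 0.135), and without CLEC4F- replicate 4, the lowest sample of all 35, by 0.27 with an adjusted p of 0.0143.

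The 250 bases before the RefSeq start of a gene were given for 5 of the 7 genes, *Csf1*, *Csf2ra*, *Csf2rb2*, *Csf3r* and *Flt3*. They were searched on both strands for GAGGAAG, the purine-rich core to which PU.1 binds, since *Spi1*, the gene of PU.1, was measured in the same samples. It stood in 3 of these 5 and in 3486 of all 32851 such stretches (10.6%), which is a match of letters and not a bound site. *Csf2ra* held it 2 times, in copies that share a base, *Csf2rb2* once on the opposite strand and *Csf3r* once. The stretches of *Csf2ra* and *Csf2rb2*, from RefSeq on GRCm38.p6, are shown because their genes encode an alpha and a beta chain, each 5′ to 3′ on the strand of its gene with the match in capitals. That of *Csf2ra* is chr19:61228419-61228668 (minus strand) and that of *Csf2rb2* is chr15:78305722-78305971 (minus strand).
Csf2ra: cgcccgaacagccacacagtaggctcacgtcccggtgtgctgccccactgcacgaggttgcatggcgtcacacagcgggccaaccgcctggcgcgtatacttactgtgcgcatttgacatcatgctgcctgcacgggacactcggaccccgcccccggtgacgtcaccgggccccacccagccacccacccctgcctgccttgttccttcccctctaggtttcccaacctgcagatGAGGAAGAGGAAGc
Csf2rb2: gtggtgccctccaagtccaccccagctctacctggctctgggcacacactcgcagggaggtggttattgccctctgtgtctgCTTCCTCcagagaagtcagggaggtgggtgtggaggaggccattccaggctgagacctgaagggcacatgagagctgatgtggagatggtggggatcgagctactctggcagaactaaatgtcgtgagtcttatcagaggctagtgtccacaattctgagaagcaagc
*Spi1* itself was at 692 ± 44.3 CPM in WD ResKCs (SD, n = 6), 599 ± 26.3 CPM in moKCs (SD, n = 5) and 531 ± 26.0 CPM in CLEC4F- macs (SD, n = 6). Its log2 fold change of CLEC4F- macs against ResKCs was -0.38 (SE 0.06, edgeR adjusted p = 5.31e-06). In that comparison *Csf2ra* stood at -0.03 and *Csf2rb2* at 0.06, neither past the test.

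*Csf2rb*, the common beta chain gene (chromosome 15, 78325752 to 78353847, plus strand), was lower in both recruited populations than in WD ResKCs. The WD ResKCs at 24 weeks ran from 285 over 331 to 364 CPM. The moKC samples stood at 223, 213, 268, 252 and 263 CPM, and the CLEC4F- macs ran from 224 over 244 to 260.4 CPM. All 5 moKC and all 6 CLEC4F- samples lay below all WD ResKC samples, whereas the recruited populations overlapped each other. The log2 fold changes against ResKCs were -0.45 for moKCs (SE 0.09, edgeR adjusted p = 0.00452) and -0.45 for CLEC4F- macs (SE 0.09, adjusted p = 0.000151). With a block for the replicate number the call for moKCs was lost (-0.45, edgeR adjusted p = 0.127). CLEC4F- macs and moKCs differed by less than 0.01 (95% interval -0.18 to 0.18, edgeR adjusted p = 0.999). The WD ResKCs at 24 weeks had the highest mean of the 6 groups, 332 ± 29.0 CPM (SD, n = 6), against 288 ± 54.0 CPM in their SD counterparts (SD, n = 6), a log2 fold change of 0.20 that missed the threshold (edgeR adjusted p = 0.143). At 12 weeks the SD samples lay between 237 and 296 CPM and the WD samples between 254 and 284 CPM, within them. Without SD replicate 4 at 24 weeks, at 364 CPM the highest SD sample, the diet difference of that time was 0.28 with an edgeR adjusted p of 0.0418.

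*Csf2rb2*, the beta chain gene of the IL-3 receptor, lies beside *Csf2rb* on the opposite strand (78282507 to 78305721, minus strand) and followed another pattern. The CLEC4F- samples ran from 73.5 over 84.0 to 87.8 CPM, and the moKC samples stood at 66.5, 64.8, 66.8, 62.5 and 66.3 CPM. All CLEC4F- samples lay above all moKC samples, by a log2 fold change of 0.32 (SE 0.09, edgeR adjusted p = 0.0137). With 8 genes of conventional dendritic cells as a covariate it was 0.27 with an adjusted p of 0.185. With that covariate the calls over all genes in this comparison fell from 2204 to 793. WD ResKCs ran from 69.5 over 81.1 to 82.8 CPM. All moKC samples lay below them too, and *Csf2rb* and *Csf2rb2* were the 2 of 7 genes without overlap in that comparison, beside 3.21% of all genes, although for *Csf2rb2* the log2 fold change of -0.26 missed the threshold (SE 0.09, edgeR adjusted p = 0.125). The SD samples ran from 60.5 over 76.7 to 91.5 CPM at 12 weeks and from 57.0 over 67.3 to 83.4 CPM at 24 weeks, and the WD samples at 12 weeks stood at 74.6, 66.0, 66.5, 67.3 and 61.4 CPM, within the range of the SD. CLEC4F- macs and WD ResKCs differed by 0.06 (95% interval -0.11 to 0.23, edgeR adjusted p = 0.656). WD and SD ResKCs differed by 0.19 at 24 weeks and by -0.20 at 12 weeks, and the change of 0.39 between them had the lowest edgeR adjusted p of the 7 genes in that test, 0.143 (SE 0.13). When the immediate-early and heat-shock list entered the fit, the diet effect at 24 weeks was 0.38 (edgeR adjusted p = 0.0131), the change between the times 0.52 (adjusted p = 0.0307) and that of moKCs against ResKCs -0.35 (adjusted p = 0.0136), each past the threshold.

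Reads of these paralogs can be hard to tell apart. The coding sequences of Csf2rb-201 (2688 bases) and Csf2rb2-201 (2634 bases) of GENCODE M21 were 95.2% identical over 2628 aligned bases, with 125 differing bases. Of 2620 windows of 75 bases, the read length of the study, 413 (15.8%) were identical, so a read from such a window fits both genes equally well. A stretch that is the same in both and one that is not are shown, 5′ to 3′ on the coding strand of mm10, as coding bases only. The identical stretch lies in exon 7, at chr15:78341391-78341465 (plus strand) in *Csf2rb* and at chr15:78291844-78291918 (minus strand) in *Csf2rb2*.
Csf2rb exon 7: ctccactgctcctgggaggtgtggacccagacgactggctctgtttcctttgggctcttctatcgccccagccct
Csf2rb2 exon 7: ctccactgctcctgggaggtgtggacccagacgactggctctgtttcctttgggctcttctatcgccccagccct
Of the stretches without gaps that lie within 1 exon in both genes, the one that differs at most bases, 14 of 75 and shown in capitals, lies in exon 4, at chr15:78338905-78338979 (plus strand) and chr15:78294352-78294426 (minus strand).
Csf2rb exon 4: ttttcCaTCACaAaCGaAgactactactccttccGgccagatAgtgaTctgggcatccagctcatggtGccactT
Csf2rb2 exon 4: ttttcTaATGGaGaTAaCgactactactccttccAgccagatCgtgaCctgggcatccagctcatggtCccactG
Over whole transcripts, 518 stretches of 75 bases were shared, which is 7.15% of those of *Csf2rb* and 10.6% of those of *Csf2rb2*. How reads that fit both genes were counted is not given in the sources used here, so the split between the genes is uncertain. Their sum does not depend on how such reads were divided, although it would be lower had they been dropped.

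**Figure D4:**
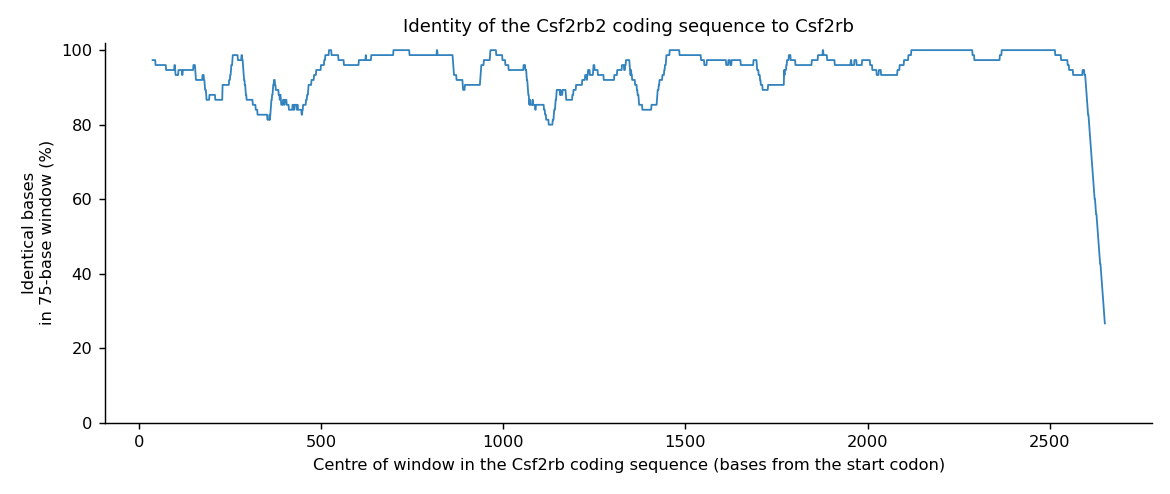
Percent of identical bases between the aligned coding sequences of *Csf2rb* and *Csf2rb2* (vertical axis) in sliding windows of 75 bases, by the position of the window's centre in the *Csf2rb* coding sequence (horizontal axis, bases from the start codon). Stretches at 100% alternate with stretches near 80%, and the fall at the right end lies where the alignment has gaps.

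The sum and the split were therefore also tested. With the counts of both genes summed, CLEC4F- macs were lower than ResKCs by a log2 fold change of -0.33 (SE 0.08, edgeR adjusted p = 0.00139) and moKCs by -0.41 (SE 0.09, adjusted p = 0.00417), and CLEC4F- macs and moKCs differed by 0.07 (adjusted p = 0.643). *Csf2rb2* made up 25.2% ± 2.04 of the summed counts in CLEC4F- macs (SD, n = 6), 21.3% ± 1.75 in moKCs (SD, n = 5) and 19.2% ± 1.96 in WD ResKCs (SD, n = 6). In the CLEC4F- macs the share ran from 22.0% to 27.3%, in the moKCs from 19.9% to 23.4% and in the WD ResKCs from 16.9% to 22.5%, so the ranges overlapped. In 2-sided exact permutation tests over 5 pairs of groups, the share was higher in CLEC4F- macs by 5.99 percentage points than in ResKCs (p = 0.00433, adjusted p = 0.0216) and by 3.92 points than in moKCs (p = 0.0152, adjusted p = 0.0379). The moKCs differed from ResKCs by 2.07 points (exact permutation p = 0.104, adjusted p = 0.173). The diet comparisons differed by -1.67 points at 12 weeks (exact permutation p = 0.145, adjusted p = 0.182) and by -0.17 points at 24 weeks (exact permutation p = 0.887). The smallest p these designs allow is 0.00216, and 0.00126 at 12 weeks.

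**Figure D5:**
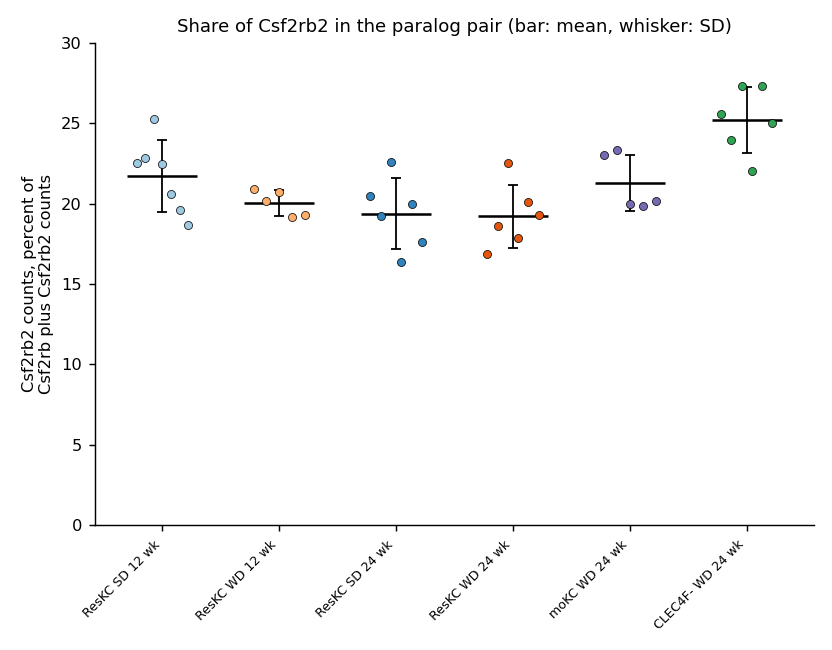
Counts of *Csf2rb2* as a percent of the counts of *Csf2rb* plus *Csf2rb2* (vertical axis, from 0) in each sample of the 6 groups (horizontal axis); bars are means and whiskers are SDs. The CLEC4F- macs have the highest mean, 25.2%, and the other groups have means between 19.2% and 21.7%.

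The partner chains of these beta chains were read beside them. *Il3ra*, the IL-3 receptor alpha chain, was at 22.5 ± 3.54 CPM in WD ResKCs (SD, n = 6), 13.9 ± 1.57 CPM in moKCs (SD, n = 5) and 15.04 ± 0.912 CPM in CLEC4F- macs (SD, n = 6). It was lower than in ResKCs by a log2 fold change of -0.70 in moKCs (edgeR adjusted p = 0.00199) and of -0.58 in CLEC4F- macs (adjusted p = 0.000502). *Il5ra*, the IL-5 receptor alpha chain, did not pass the filter and reached at most 2.11 CPM in a sample. Of 14 genes of the JAK-STAT pathway, through which beta chain receptors signal, 3 were higher and 3 lower in CLEC4F- macs than in ResKCs, with a median log2 fold change of 0.00, beside 16.1% of all genes higher and 17.0% lower. *Stat5a*, the main transcription factor of this pathway, rose by 1.25 (edgeR adjusted p = 2.23e-07), the kinase gene *Pim1* by 2.41 (adjusted p = 2.27e-05) and the feedback inhibitor gene *Socs3* by 1.81 (adjusted p = 0.00579). In moKCs 2 of 14 were higher than in ResKCs, beside 0.991% of all genes, *Stat5a* by 0.59 (edgeR adjusted p = 0.0447) and *Pim1* by 1.49 (adjusted p = 0.0455), and 0 were lower. *Stat5a* was also higher in CLEC4F- macs than in moKCs, by 0.66 (edgeR adjusted p = 0.00544). With the WD at 24 weeks *Socs3* fell by 1.88 (edgeR adjusted p = 0.0195), the 1 of 14 that changed.

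*Csf3r*, the G-CSF receptor gene (chromosome 4, 126024550 to 126044440, plus strand), was measured between 60.2 and 123 CPM in the 35 samples. It was lowest in moKCs, at 69.3, 60.2, 69.9, 82.9 and 64.8 CPM, and ran from 65.2 over 91.6 to 111 CPM in CLEC4F- macs. In 4 of the 6 CLEC4F- samples it lay above all moKC samples, by a log2 fold change of 0.41 (SE 0.13, edgeR adjusted p = 0.0229), but CLEC4F- replicate 4, at 65.2 CPM, lay among the moKCs. The call was lost without any 1 of 4 samples, moKC replicates 2 and 5 and CLEC4F- replicates 2 and 3, with log2 fold changes of 0.35 to 0.38 and adjusted p of 0.0588 to 0.0701. It was also lost with no filter on low counts (0.39, edgeR adjusted p = 0.0551), with the compared groups fitted alone (0.42, adjusted p = 0.0702) and with the dendritic cell genes as a covariate (0.31, adjusted p = 0.303). In the last of these fits the calls over all genes fell from 2204 to 793 as well. Against WD ResKCs, from 67.7 over 79.8 to 90.6 CPM, CLEC4F- macs differed by 0.20 (edgeR adjusted p = 0.221) and moKCs by -0.21 (adjusted p = 0.447). At 12 weeks it ran from 80.8 over 92.4 to 122.6 CPM on the SD and stood at 95.8, 114, 77.4, 96.5 and 99.4 CPM on the WD, a difference of 0.02 (edgeR adjusted p = 0.974). On the SD it stood at 89.9 ± 14.7 CPM at 24 weeks (SD, n = 6), and the WD effect there was -0.16 (95% interval -0.40 to 0.07, edgeR adjusted p = 0.418).

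Genes of neutrophils, the cells best known for *Csf3r*, were low in all samples but 1. Of 9 listed, 4 passed the filter, with 0 higher and 1 lower in CLEC4F- macs than in moKCs, beside 7.09% and 9.34% of all genes. Against ResKCs 1 was higher and 0 lower in CLEC4F- macs, beside 16.1% of all genes higher. In moKCs against ResKCs 1 was higher and 0 lower as well, beside 0.991% of all genes higher. The part of these genes in *Csf3r* was not tested. *Ly6g* had 0 counts in all 35 samples, *Camp* was at 0 in every sample of 5 of the 6 groups, and the 9 genes of the neutrophil list summed to between 2.46 and 25.0 CPM in 34 of the 35 samples. The exception was moKC replicate 1, at 515 CPM, of which *Mmp9* made up 510.4 CPM, and its *Csf3r* was at 69.3 CPM, the median of the moKCs. The genes most like *Csf3r* over the 35 samples were *Tnfrsf1b* (Pearson's r = 0.71), *Dennd1a* (0.70) and *Lyl1* (0.69).

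*Flt3* (chromosome 5, 147330741 to 147400489, minus strand) had group means of 0.0848 to 0.566 CPM in the Kupffer cells and 5.20 CPM in the CLEC4F- macs. The samples were not fully apart. SD ResKC replicate 2 and WD ResKC replicate 3, both at 12 weeks, and moKC replicate 1 lay above CLEC4F- replicate 5, at 1.05 CPM. The CLEC4F- samples stood at 15.4, 6.73, 3.23, 1.97, 1.05 and 2.84 CPM, from 222, 104, 50, 27, 13 and 40 counts. The moKC samples stood at 1.36, 0.712, 0.525, 0.239 and 0 CPM, and the WD ResKC samples at 24 weeks ran from 0 over 0.460 to 0.798 CPM. All 6 CLEC4F- samples lay above all WD ResKC samples, and 5 of 6 lay above all moKC samples. *Flt3* passed the filter on low counts only through the CLEC4F- samples, the group then tested as higher. The log2 fold change was 3.62 against ResKCs (SE 0.95, edgeR adjusted p = 0.00311) and 3.16 against moKCs (SE 0.98, adjusted p = 0.0229). With no filter it was 3.59 (edgeR adjusted p = 0.00464) and 3.13 (adjusted p = 0.0387). Without CLEC4F- replicate 1, the highest sample, it was 2.91 against ResKCs (edgeR adjusted p = 0.0183) and 2.46 against moKCs (adjusted p = 0.101). The call against moKCs was also lost without moKC replicate 3, 4 or 5, with log2 fold changes of 2.85 to 3.13 and edgeR adjusted p of 0.0501 to 0.0594. In SD ResKCs at 24 weeks all 6 samples had 3 counts or fewer, so no fold change with diet or time is given. At 12 weeks the 7 SD samples ran from 0 over 0.0767 to 1.35 CPM, and the WD samples stood at 0, 0.743, 1.57, 0 and 0.0771 CPM.

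Some genes of dendritic cells were higher beside *Flt3*. The gene most like it over the 35 samples was *Cd209a*, a lectin of monocyte-derived and some conventional dendritic cells (Pearson's r = 0.85), followed by *Il12rb2* (0.81) and *Gpr183* (0.80). In the CLEC4F- macs *Cd209a* stood at 121, 39.4, 43.9, 4.75, 1.94 and 10.4 CPM, highest in replicate 1 and lowest in replicate 5, as was *Flt3*. Replicates 1 to 3 shared 1 naming scheme of the alignments and replicates 4 to 6 the other. In each of replicates 1 to 3 both genes were higher than in any of replicates 4 to 6. With the scheme as a covariate the log2 fold change of *Flt3* against ResKCs was 3.45 (edgeR adjusted p = 0.00269). The chemokine receptor gene *Ccr7* was at 85.5 CPM in CLEC4F- replicate 1 and at 1.61 to 8.21 CPM in the other CLEC4F- samples. The 8 genes of the conventional dendritic cell list summed to 62.0 to 293 CPM in CLEC4F- macs, 58.4 to 79.0 CPM in WD ResKCs and 59.6 to 87.7 CPM in moKCs, and none was at 0 throughout a group. In CLEC4F- macs 3 of 8 were higher and 0 lower than in ResKCs, beside 16.1% of all genes higher and 17.0% lower. Against moKCs 3 were higher and 1 lower, beside 7.09% and 9.34% of all genes. With this list as a covariate the log2 fold change of *Flt3* was 0.30 against ResKCs (edgeR adjusted p = 0.918) and 0.76 against moKCs (adjusted p = 0.761). The list holds *Cd209a* and *Ccr7* themselves. It also holds *Zbtb46*, *Xcr1*, *Clec9a*, *Itgae*, *Batf3* and *Kmo*, whose levels are not given singly here. In the same fit the calls over all genes fell from 4433 to 1639 against ResKCs and from 2204 to 793 against moKCs. Most calls of any gene were thus lost in this fit. Genes of lymphocytes were higher too, with sums of 38.2 to 158 CPM in CLEC4F- macs and 10.2 to 27.4 CPM in WD ResKCs. Of the 5 tested genes 5 were higher, beside 16.1% of all genes. The part of these genes in the result was not tested. An antisense gene of *Flt3*, *Gm26597*, had at most 12 counts in a sample.

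The transcription factor and growth genes tied to these receptors were also counted. Of 12 myeloid transcription factor genes 11 passed the filter. With the WD at 24 weeks 3 were lower and 0 higher, beside 3.87% and 4.84% of all genes, namely *Klf4* (-2.07, edgeR adjusted p = 0.0372), *Ets2* (-1.07, adjusted p = 0.0112) and *Cebpb* (-0.69, adjusted p = 0.0223), in the comparison in which *Csf1* and 7 of 10 immediate-early and heat-shock genes were lower. Between CLEC4F- macs and ResKCs, where 33.0% of all genes passed, 1 was higher and 1 lower, *Runx1* at 0.80 (edgeR adjusted p = 2.02e-05) and *Spi1* as given above. *Runx1* was also higher than in moKCs, by 0.62 (edgeR adjusted p = 0.00238), and between moKCs and ResKCs 0 of 11 passed. Of 11 growth genes 2 were higher on the WD at 24 weeks, beside 4.84% of all genes. These were the proliferation marker *Mki67* by 1.04 (edgeR adjusted p = 0.00826) and the kinase gene *Cdk6* by 0.67 (adjusted p = 0.0285). These are mRNA levels, and cell division was not measured in these samples. For the Ki-67 protein, the paper reported no difference between the diets in positive CLEC4F+ Kupffer cells. Between CLEC4F- macs and ResKCs 3 were higher and 2 lower, beside the same 33.0%, with the cyclin genes *Ccnd2* at 1.87 (edgeR adjusted p = 8.50e-06) and *Ccnd3* at -0.53 (adjusted p = 0.00817) and *E2f1* at -0.44 (adjusted p = 0.001). Against moKCs *Ccnd2* was higher by 0.97 (edgeR adjusted p = 0.0262) and the cell cycle inhibitor gene *Cdkn1a* by 0.91 (adjusted p = 0.0118). At 12 weeks, over time on the SD and in the difference of diet effects, 0 genes of any of these lists passed.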

How the data were processed

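RNA of FACS-sorted liver macs was made into TruSeq libraries and sequenced as single reads of 75 bases. Per the labels and methods, the authors mapped reads to mm10 with HISAT2 2.2.0 (with SAMtools 1.10 and FastQC 0.11.9, from the submitters' processing notes) and deposited raw counts per gene symbol and sample from featureCounts 2.0.0. The strand setting and the treatment of reads with several matches are not given in the sources used here. Reads from both strands or from paralogs may thus be mixed, and library totals of 11568590 to 15163845 counts leave genes near the floor of 3 counts imprecise.

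The counts of all 35 samples in 6 groups were fitted together with edgeR 4.0.16 and limma 3.58.1 in R 4.3.3, with TMM normalization, a term for each group and the quasi-likelihood test, on the 13421 genes above 1 CPM in at least 5 samples. Adjusted p are Benjamini-Hochberg values over these genes with a threshold of 0.05, and 95% intervals of log2 fold changes use the normal distribution. Printed CPM are scaled by TMM. The share of *Csf2rb2* was compared by exact permutation tests. The fit was also run on simulated counts with planted changes larger than most of those reported here. That run does not show how well smaller changes are found. DESeq2 1.42.0, limma-voom, library size scaling, no filter, a robust fit, a fold limit, the compared groups alone, summed paralogs, a block for the replicate number, leaving out each replicate, and covariates for immediate-early and heat-shock genes, hepatocyte genes and the naming scheme of the alignments were alternatives. Covariates for stellate, endothelial and conventional dendritic cell genes were added after seeing the data.

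The 7 genes, the gene lists and the markers were chosen with earlier results of these data known. Named are all 7 genes and, per list and comparison, up to 3 genes with the highest absolute log2 fold change among those past the threshold, and the 3 genes most like each of the 7, where likeness is Pearson's r of log2 CPM with a prior count of 2. Levels per kilobase used exon lengths and positions from GENCODE M21 on GRCm38.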

Additional observations from a re-analysis of the deposited data

Results flagged for a closer look

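In 4 of 48 sets of values, each 1 of the 7 genes or the share of *Csf2rb2* in 1 of the 6 groups, 1 sample lay far from the others, by the gap to its nearest neighbour against the range of the group, and chance alone gives about 1 in 20. *Csf1* was at 11.7 CPM in WD ResKC replicate 3 at 24 weeks, against 4.82 to 6.94 CPM in the other samples of that group. *Csf1* was also at 23.3 CPM in moKC replicate 1, against 5.34 to 9.97 CPM in the others. *Csf3r* was at 122.6 CPM in SD ResKC replicate 6 at 12 weeks, against 80.8 to 98.7 CPM. *Flt3* was at 1.35 CPM, or 18 counts, in SD ResKC replicate 2 at 12 weeks, against 0 to 0.284 CPM.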

How the results depend on the processing

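Counts of called genes among the 7 changed as follows. For the WD against the SD at 24 weeks the count of 1 became 0 with limma-voom, with the naming scheme and with the stellate or endothelial covariates, 3 with library size alone, and 0 to 2 when a replicate was left out. With a log2 fold change over 1 also required, it became 1 in CLEC4F- macs against ResKCs, 0 in moKCs against ResKCs and 1 in CLEC4F- macs against moKCs. The immediate-early and heat-shock covariate gave 2 in moKCs against ResKCs and 1 for the change of the diet effect between the times, and the naming scheme gave 1 for the latter, each time through *Csf2rb2* (log2 values of -0.35, 0.52 and 0.54). With the former covariate *Csf2rb2* also passed for the WD against the SD at 24 weeks (0.38, edgeR adjusted p = 0.0131) while *Csf1* did not, so the count there was again 1, of another gene. In CLEC4F- macs against moKCs the dendritic cell covariate, with which calls over all genes fell from 2204 to 793, gave 1 and leaving out a replicate 2 to 5. With a block for the replicate number, described below, the count became 0 in moKCs against ResKCs and 2 in CLEC4F- macs against moKCs. All other settings kept these counts within 1.5 times. Library size alone moved the median of all genes between CLEC4F- macs and ResKCs from 0.02 to 0.14 on the log2 scale.

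Directions that turned all belonged to differences that passed no test. *Csf3r* at 12 weeks became -0.017 with the naming scheme and -0.0089 with the dendritic cell covariate (-0.044 to 0.093 without a replicate). *Csf2ra* in CLEC4F- macs against ResKCs became 0.10 with library size alone (-0.071 to 0.042 without a replicate). *Csf2rb2* there became -0.048 with the immediate-early and -0.015 with the dendritic cell covariate. Between CLEC4F- macs and moKCs, *Csf1* became 0.047 in limma-voom, 0.14 with the hepatocyte and 0.45 with the endothelial covariate (-0.27 to 0.40 without a replicate). *Csf2rb* there became 0.0045 in DESeq2, 0.0036 in limma-voom, 0.088 with library size, 0.0011 with the naming scheme, 0.037 with the dendritic cell covariate and 0.011 in the compared groups alone (-0.045 to 0.036 without a replicate). Over time on the SD, *Csf1r* became -0.021 with the dendritic cell covariate, and without a replicate *Csf2ra* ran from -0.050 to 0.022 and *Csf2rb* from -0.022 to 0.12. The cause was not tested. Without a replicate the *Csf2rb2* share ran from 5.53 to 6.65 points for CLEC4F- macs against ResKCs, 3.50 to 4.56 against moKCs, 1.55 to 2.73 for moKCs against ResKCs, -2.18 to -1.08 at 12 weeks and -0.83 to 0.47 at 24 weeks.

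Deviations from the group means in samples with the same replicate number had correlations of -0.36 to 0.26. These were of mixed sign except in CLEC4F- macs against ResKCs, where they ran from 0.024 to 0.26. Whether the numbers mark cells of the same mice was not settled. With the replicate numbers as a block, 0 of 7 genes passed in moKCs against ResKCs, where *Csf2rb* stood at -0.45 (edgeR adjusted p = 0.127), and 2 in CLEC4F- macs against moKCs. There *Csf1r* stood at -0.60 (edgeR adjusted p = 0.0667) and *Csf3r* at 0.43 (adjusted p = 0.189), and *Csf1* stood at 0.11 and *Csf2rb* at 0.039. As paired differences, the share was 5.99 points higher than in ResKCs and 3.96 higher than in moKCs (both adjusted exact permutation p = 0.104). With only 6 and 5 pairs, no adjusted p of this paired test could fall under 0.05, so it could not decide.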

Other observations

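*Kit*, the receptor for the *Kitl* product and a relative of *Csf1r* and *Flt3*, passed no test in any comparison and varied widely within groups, from 5.55 to 70.6 CPM in moKCs and from 3.16 to 26.6 CPM in WD ResKCs at 24 weeks. The genes most like *Csf2ra* over the 35 samples were *Pigb* and *Mier2* (Pearson's r = 0.68 for each) and *B4galt3* (0.65). Those most like *Csf2rb* were *Txnrd1*, *Gaa* and *Cmip* (0.80 for each), and those most like *Csf2rb2* were *Zswim4* (0.65), *Egr2* (0.60) and *Csgalnact2* (0.60). These are descriptions over samples that share populations and diets. The 7 hepatocyte genes used as a covariate summed to 431 to 2559.5 CPM over all samples, with 0 higher and 1 lower in CLEC4F- macs against ResKCs and against moKCs.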
